A study of Mus musculus with 12 samples.

Results

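The data described here are the counts of 37 genes of fatty acid oxidation and ketone body handling in control mouse livers and in liver tumors, chosen by name from the 26301 genes of the count table. All 37 had a row in the table, and all 37 passed edgeR's filter on low counts, which kept 13882 genes. RNA was sequenced from 4 livers of wild-type mice without tumors (control), 4 spontaneous liver tumors of Alb-Cre mice with E2f7 and E2f8 knocked out (DKO) and 4 spontaneous liver tumors of Alb-Cre mice that lacked Rb1 in addition to E2f7 and E2f8 (TKO). All mice are labelled adult, had been bred into the FVB strain, and were killed at a humane end point of an end-of-life study, with no exact age given in the labels. Cre was driven by the albumin promoter, which is active in hepatocytes, so the other cells of a tumor still carried the deleted genes. Control livers and tumors differ in tumor state and in gene deletion together. No tumor-free knockout liver was sequenced, so these cannot be told apart. Levels are given in CPM, a gene's share of the counts of its library scaled to a fixed total with edgeR's TMM factors.

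Fatty acids enter the hepatocyte by transport and diffusion, are bound by Fabp1 in the cytosol, are joined to coenzyme A by acyl-CoA synthetases, and cross the inner mitochondrial membrane as carnitine esters. Inside, they are shortened by cycles of dehydrogenation, hydration, a further dehydrogenation and thiolysis, with electrons passed through the electron transfer flavoprotein, while very long and branched chains are first shortened in peroxisomes. In the fasted liver much of the acetyl-CoA becomes ketone bodies, and the nuclear receptor PPARα, encoded by Ppara, is the best known activator of these genes. Of the members, only Bdh1, which interconverts acetoacetate and 3-hydroxybutyrate, is a ketone body enzyme, so other genes of ketone body handling are given further on from a separate list.

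PPARα binds with RXR to a direct repeat spaced by a single base (DR1), so the promoter letters of the members were searched for this repeat. Promoter entries of RefSeq (GRCm38.p6) were found for 31 of the 37 members, in 35 entries, and the 250 bases before each start were read. The repeat, spelled as AGGTCA followed after 1 base by AGGTCA in the same direction, with up to 2 mismatches and on both strands, was present in 4 of these 35 entries and in 3.24% of all 32851 promoters of the same length. The 4 are those of Cd36, Fabp1, Echs1 and Etfa. They are printed because Cd36 and Echs1 are the members called below and Fabp1 had the highest level per kilobase of transcript, and Etfa completes the set, with the matched letters in capitals.
Cd36: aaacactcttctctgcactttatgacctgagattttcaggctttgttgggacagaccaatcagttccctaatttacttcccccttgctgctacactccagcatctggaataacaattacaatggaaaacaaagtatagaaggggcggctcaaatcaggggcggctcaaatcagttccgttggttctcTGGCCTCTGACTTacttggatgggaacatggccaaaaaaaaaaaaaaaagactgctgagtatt
Fabp1: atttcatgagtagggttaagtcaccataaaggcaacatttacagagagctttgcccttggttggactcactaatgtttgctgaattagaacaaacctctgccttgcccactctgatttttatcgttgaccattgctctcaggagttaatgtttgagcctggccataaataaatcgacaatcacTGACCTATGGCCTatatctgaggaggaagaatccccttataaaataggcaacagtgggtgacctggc
Echs1: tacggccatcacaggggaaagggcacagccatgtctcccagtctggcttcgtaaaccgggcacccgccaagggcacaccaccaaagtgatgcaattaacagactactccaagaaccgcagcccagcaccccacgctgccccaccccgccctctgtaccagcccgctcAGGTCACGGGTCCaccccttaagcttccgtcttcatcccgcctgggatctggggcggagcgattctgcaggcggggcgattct
Etfa: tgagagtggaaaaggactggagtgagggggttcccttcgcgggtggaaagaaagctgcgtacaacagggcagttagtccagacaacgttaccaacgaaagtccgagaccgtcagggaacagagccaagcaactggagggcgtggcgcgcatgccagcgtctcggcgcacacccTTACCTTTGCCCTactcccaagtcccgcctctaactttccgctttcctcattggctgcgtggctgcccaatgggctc
These stretches lie at chr5:17835897-17836146 on the minus strand for Cd36, chr6:71199629-71199878 on the plus strand for Fabp1, chr7:140116422-140116671 on the minus strand for Echs1 and chr9:55512244-55512493 on the minus strand for Etfa. The match lies 63 to 51 bases before the start in Cd36, 67 to 55 in Fabp1, 83 to 71 in Echs1 and 77 to 65 in Etfa. It has 1 mismatch in Fabp1 and 2 in each of the other promoters. Of these genes, Cd36 was called higher in DKO tumors and Echs1 was called lower. Fabp1 and Etfa had lower means there without a call (log2 fold change -0.90 and -0.22). The part of the repeat in these levels was not tested.

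Other short motifs were looked for in the same windows on both strands. The E2F words TTTCCCGC, TTTGGCGC, TTTGCCGC and TTTCGCGC were found in 0 of the 35 member entries and in 1.86% of all promoters. The GC box GGGCGG was in 19 of 35 entries against 32.7% of all promoters, the CCAAT box in 15 of 35 against 33.8%, and the TATA box TATAAA in 1 of 35, that of Fabp1, against 12.4%. Hadha and Hadhb, which encode the α and β subunits of the mitochondrial trifunctional protein, start head to head, and their windows share 228 bases. The window before Hadha (chr5:30154981-30155230, minus strand) is printed to show this shared stretch, with its GC box, on the opposite strand, in capitals.
Hadha: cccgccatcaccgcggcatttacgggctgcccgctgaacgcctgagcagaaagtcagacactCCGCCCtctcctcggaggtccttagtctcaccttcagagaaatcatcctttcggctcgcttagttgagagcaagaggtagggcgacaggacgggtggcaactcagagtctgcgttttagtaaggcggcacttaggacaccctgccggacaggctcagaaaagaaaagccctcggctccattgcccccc

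The deleted genes, library sizes and cell type markers were looked at first. Rb1 was at 6.52 to 10.7 CPM in control livers, 7.99 to 11.3 in DKO tumors and 3.21 to 5.47 in TKO tumors, so every TKO tumor had less Rb1 than every other library, while E2f7, with 4 to 24 counts per library, and E2f8, at 4.52 to 8.97 CPM in control livers and 7.59 to 52.2 in tumors, did not show a loss. Library totals ranged from 9165812 to 16424973 counts, of which the 37 members took 0.815% to 1.52%. The summed CPM of 10 hepatocyte markers was 112877 to 172239 in control livers, 159935 to 410015 in DKO tumors and 67515 to 293202 in TKO tumors, with no marker at 0, so the tumors held hepatocyte RNA as labelled. Of these 10 markers, 6 had a higher mean in DKO tumors than in control livers, and 0 were called in any of the 3 comparisons. Fewer cells of a type and less RNA per cell cannot be told apart in whole tissue.

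Within control livers the members spanned a wide range of levels. Per kilobase of the longest coding transcript, the highest was Fabp1, the liver fatty acid binding protein, with 2385 ± 1082 CPM per kilobase (SD, n = 4). It was followed by Acaa2, the mitochondrial thiolase, with 787 ± 104, and by the bile acid and fatty acid CoA ligases Slc27a2 and Slc27a5, with 461 ± 85.9 and 453 ± 44.0. Slc27a2 and Slc27a5 did not differ beyond their spread. The lowest were Vnn1, a pantetheinase, with 1.33 ± 0.813 CPM per kilobase, the fatty acid receptor and transporter Cd36 with 7.27 ± 2.08, and the carnitine acetyltransferase Crat with 7.42 ± 1.60, and Cd36 and Crat did not differ beyond their spread.

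**Figure D1:**
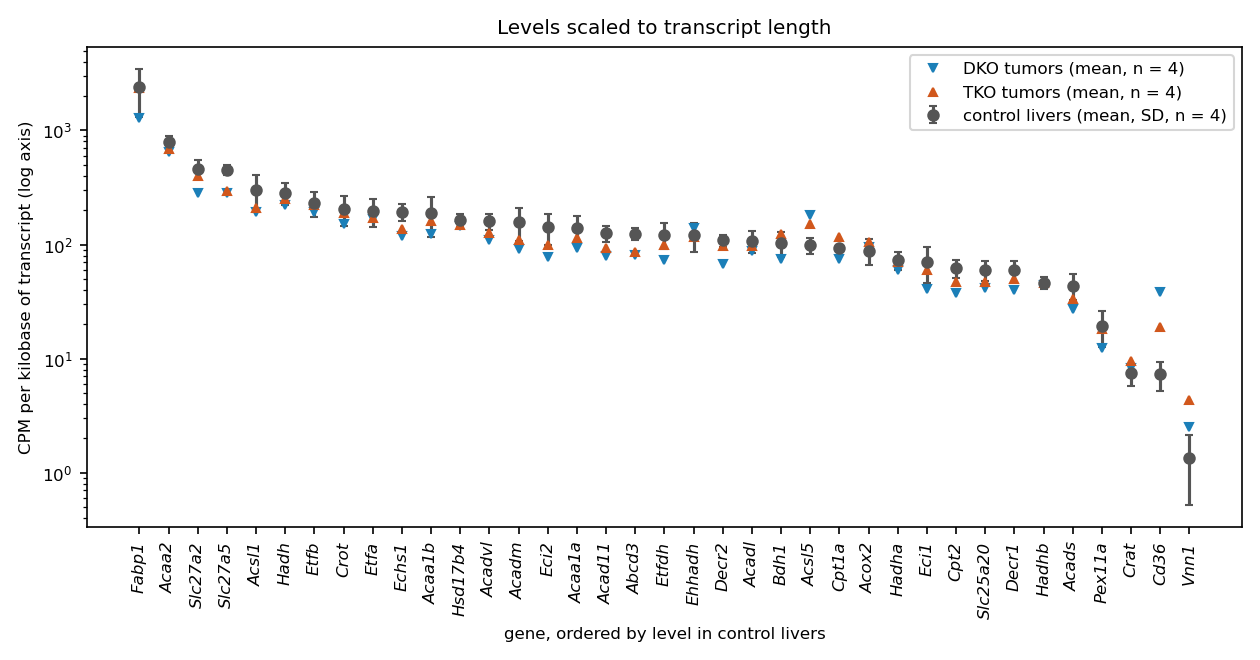
Mean CPM per kilobase of transcript on a log axis for the 37 members, ordered by their level in control livers (gray, with SD, n = 4), with the means of DKO (blue) and TKO tumors (orange). Fabp1 leads with 2385 CPM per kilobase in control livers, and Vnn1 is lowest with 1.33. Cd36 has the widest gap between control livers and DKO tumors.

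Against control livers, DKO tumors had lower means for most genes of the pathway. The mean was lower for 31 of 37 members and higher for 6, against 48.4% lower among all tested genes. The median log2 fold change of the members was -0.56, a median fold of 0.677, where the median over all tested genes was 0.02. edgeR's quasi-likelihood test, with Benjamini-Hochberg adjustment over all 13882 genes, called 1 member lower (Echs1) and 1 higher (Cd36), where it called 1.01% of all tested genes lower and 1.41% higher, 2.42% in all. The unadjusted p was under 0.05 for 18 members lower (48.6%, against 11.1% of all tested genes) and for 2 higher (against 12.9%). All 4 tumors lay below all 4 control livers for 14 members (37.8%, against 7.3%) and above them for Cd36 alone (against 8.87%).

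Both calls sit close to the threshold, and the number of calls moved with the method. DESeq2 called 10 members lower and 1 higher (4.51% and 5.44% of the genes it tested), and voom with quality weights called 12 lower and 1 higher (6.31% and 6.68%). No member was called with total counts as the only scaling or with a covariate from sex-linked genes, and leaving out 1 library in turn gave 0 to 3 calls. The covariate did not separate sexes, since all libraries were alike in Xist (0.0711 to 0.46 CPM) and in summed Y-linked genes (92.4 to 156 CPM). With control 2 or control 3 left out, edgeR called 0 of all tested genes. The median over the members stayed between -0.65 and -0.43 when a library was left out.

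**Figure D2:**
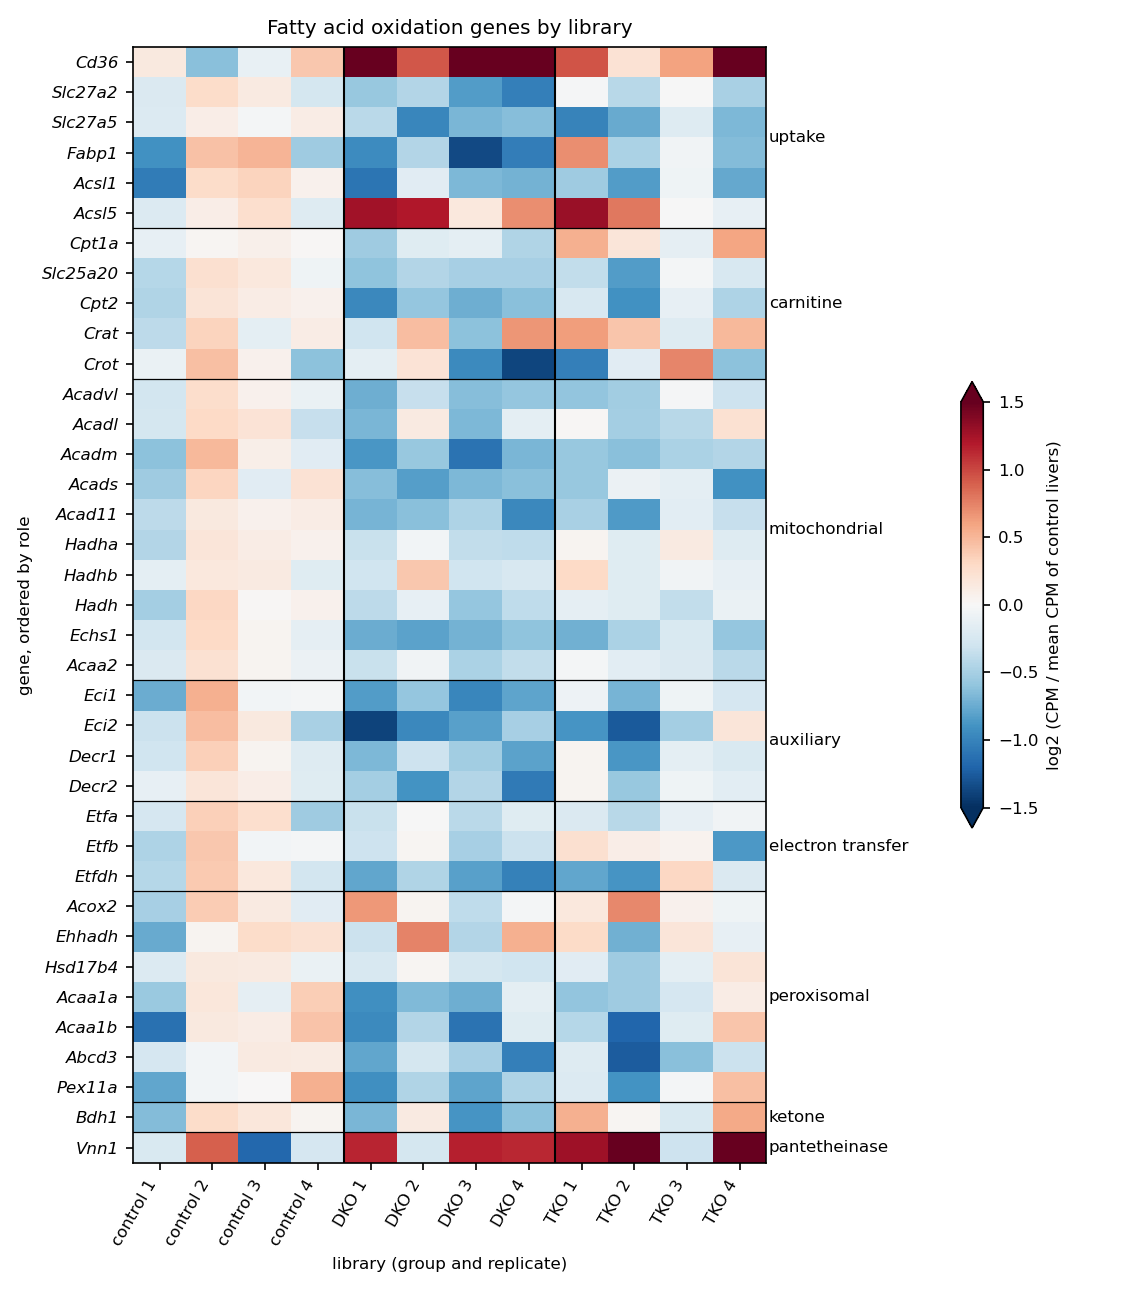
Each row is a member, ordered by role, and each column a library. Color gives the log2 ratio of its CPM to the mean CPM of the 4 control livers, with blue lower and red higher, cut at 1.5 in either direction. Most rows are blue in the DKO columns, with Cd36, Acsl5 and Vnn1 the clearest red rows, and control 1 is blue in nearly every row.

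Among genes of uptake, binding and activation, 4 of 6 had a lower mean in DKO tumors and 2 a higher one. Cd36 (Entrez 12491, chromosome 5 from 17287508 to 17394777, in mm9 as for all genes here), which takes up long-chain fatty acids at the cell surface, was at 28.6, 16.7, 24.1 and 34.3 CPM in control livers 1 to 4. It was at 144, 49.6, 108 and 247 CPM in DKO tumors 1 to 4 and at 49.9, 30.1, 39.4 and 153 in TKO tumors 1 to 4. Every DKO tumor was above every control liver, and TKO 2 lay within the control range. The log2 fold change in DKO tumors was 2.40 (standard error 0.559, 5.28-fold, adjusted p = 0.0488 from edgeR). An exact two-sided permutation test of Cd36 alone gave p = 0.0286, the smallest that 4 against 4 allow. Any groups without overlap give this value, so it only restates the lack of overlap. Without DKO 4, the highest tumor, the log2 fold change was 1.95 and the adjusted p from edgeR was 0.0874.

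The libraries with the most Cd36 also stood apart in markers of liver zones. DKO 4 and TKO 4, which had the highest Cd36 of their groups, had summed pericentral markers of 28179 and 36893 CPM against 8860 to 14414 in control livers, and summed periportal markers of 542 and 871 CPM against 5673 to 7669. The pericentral enzyme Glul was at 7472 and 10331 CPM in them and at 463 to 781 in control livers. Other tumors went against this. DKO 2 had 3138 CPM of Glul with the lowest Cd36 of the DKO tumors, and DKO 1 had 144 CPM of Cd36 with a pericentral sum of 1080 CPM. The part of liver zones in the Cd36 result was not tested. Fat, endothelial and myeloid cells also express Cd36. Of 5 adipocyte markers, Adipoq, Plin1, Lep and Cfd were each at or under 0.0539 CPM on average in every group. The summed macrophage markers were lowest of all libraries in DKO 4 (89.7 CPM, against 164 to 416 in control livers). The endothelial markers of DKO 4 did not go one way. Pecam1 at 69.5 CPM and Cdh5 at 61.4 were the highest of all libraries, against 10.6 to 22.2 and 13.6 to 33.4 in control livers, while the sinusoidal markers Clec4g at 2.06 and Stab2 at 14.3 were the lowest, and their sum over the list was 202 CPM against 146 to 224. The part of endothelial cells in the Cd36 result was not tested.

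Slc27a5 (Entrez 26459, chromosome 7 from 13573695 to 13583541), the bile acyl-CoA synthetase of the liver, was at 901, 1107, 1019.8 and 1119 CPM in control livers. It was at 782, 525, 643 and 665 in DKO tumors and 516, 614, 905 and 649.6 in TKO tumors. All DKO tumors lay below all control livers, and TKO 3 alone overlapped the controls. Its log2 fold change was -0.67 in DKO tumors (standard error 0.215, adjusted p = 0.0935 from edgeR). Fabp1 (Entrez 14080, chromosome 6 from 71149821 to 71155017) was at 701, 1787, 1874 and 914 CPM in control livers, 687, 976, 515 and 643 in DKO tumors and 2137, 946, 1275 and 839 in TKO tumors. Control livers themselves spread widely here, and DKO tumors overlapped the lower pair of them (log2 fold change -0.90, standard error 0.389, adjusted p = 0.180 from edgeR).

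Acsl5 (Entrez 433256, chromosome 19 from 55327859 to 55371117), a long-chain acyl-CoA synthetase also linked to triglyceride synthesis, had its highest levels in tumors. It was at 269, 333, 371 and 271 CPM in control livers, 742, 714, 348 and 503 in DKO tumors and 764, 538, 309 and 286 in TKO tumors. DKO 1, DKO 2 and TKO 1 were highest, and DKO 3, TKO 3 and TKO 4 lay within the control range. The log2 fold change in DKO tumors was 0.89 (standard error 0.333, adjusted p = 0.129 from edgeR). The main hepatic synthetase Acsl1 and the transporter and ligase Slc27a2 had log2 fold changes of -0.62 and -0.70.

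**Figure D3:**
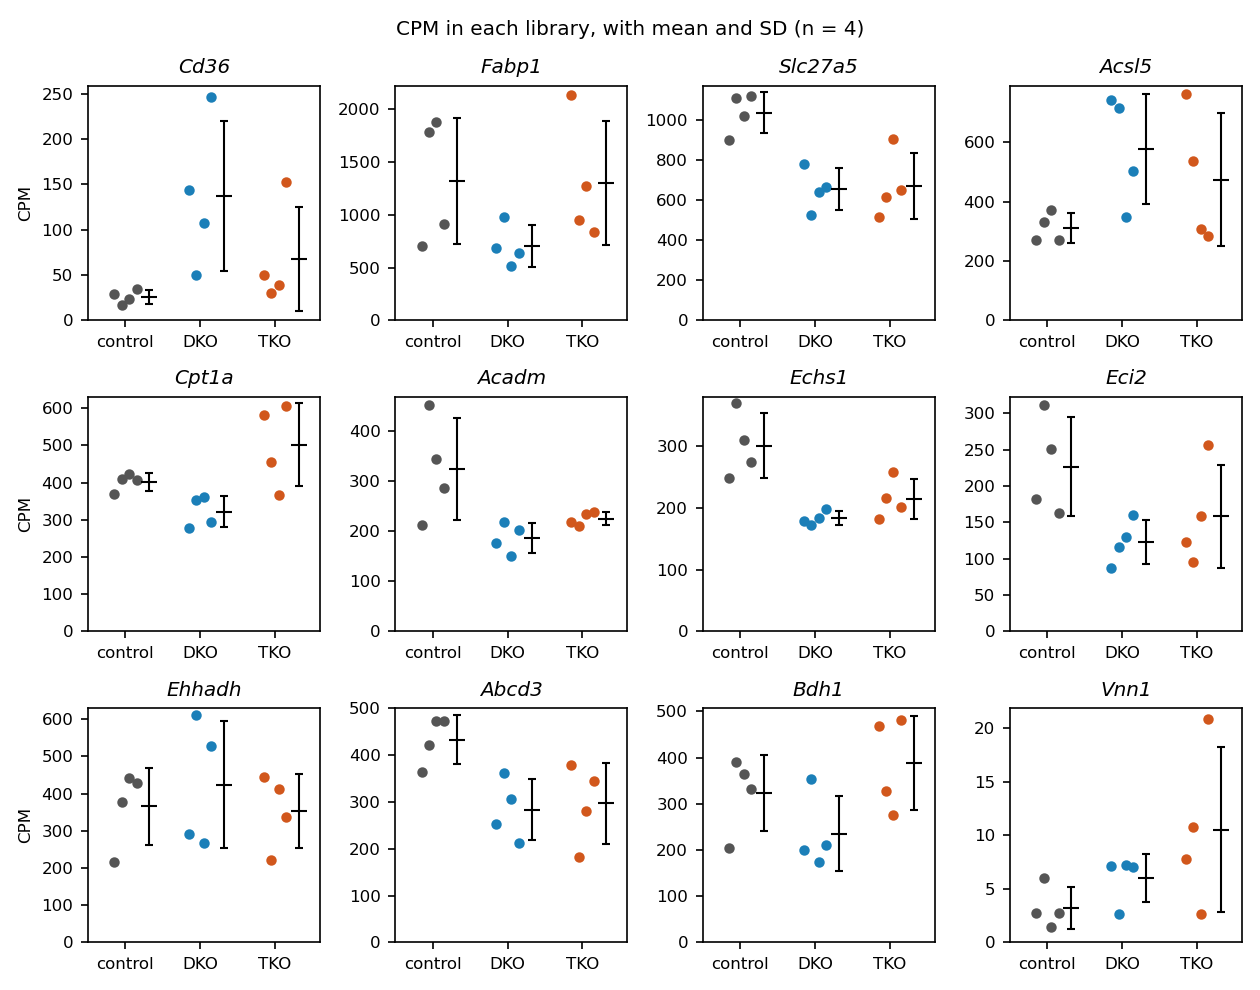
CPM of 12 members in each library, with the mean and SD of each group (n = 4) in black beside the points. Each panel has its own vertical axis, which starts at 0. The 4 DKO points of Echs1 lie between 172 and 198, below every control liver, and the 4 DKO points of Cd36 lie above every control liver.

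Of the 5 genes of carnitine ester formation and transfer, 4 had a lower mean in DKO tumors. Cpt1a (Entrez 12894, chromosome 19 from 3323301 to 3385732), the enzyme that commits long chains to mitochondrial oxidation and its most regulated step, was at 368, 408, 424 and 406 CPM in control livers. It was at 277, 354, 362 and 294 CPM in DKO tumors, all below the lowest control liver, and at 581, 454, 366 and 605 in TKO tumors. TKO 1, TKO 2 and TKO 4 were above the highest control liver, and TKO 3 was just under the lowest. The log2 fold changes against control livers were -0.32 in DKO and 0.32 in TKO tumors (standard error 0.186 and 0.186, adjusted p = 0.319 and 0.423 from edgeR). Cpt2, which releases the acyl group on the inner side, and the carrier Slc25a20 did not overlap between DKO tumors and control livers, with log2 fold changes of -0.72 and -0.51. The SD of Slc25a20 over DKO tumors was 3.46 CPM around a mean of 74.8. Crat was at 0.15, and Crot, which makes carnitine esters in peroxisomes, at -0.44 with a standard error of 0.421.

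All 10 members of the mitochondrial oxidation cycle had a lower mean in DKO tumors, with log2 fold changes from -0.79 to -0.08 and a median of -0.46. Echs1 (Entrez 93747, chromosome 7 from 147291609 to 147302375), the short-chain enoyl-CoA hydratase, was at 249, 369.9, 310.3 and 275 CPM in control livers. It was at 179, 172, 184 and 198 CPM in DKO tumors and 183, 217, 258 and 201 in TKO tumors. The DKO tumors were close to each other and all lay below the lowest control liver. Echs1 fell by 0.71 on the log2 scale in DKO tumors (standard error 0.162, 0.610 of control, adjusted p = 0.0480 from edgeR). Over the fits that each left out a library, its adjusted p from edgeR ran from 0.0302 without TKO 3 to 0.140 without control 2. Its log2 fold change ran from -0.80 to -0.60. The exact permutation test of this gene alone gave p = 0.0286. Any groups without overlap give this value, so it adds no support to the call.

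Acadm (Entrez 11364, chromosome 3 from 153585321 to 153607596), the medium-chain acyl-CoA dehydrogenase whose loss causes the most common inherited defect of this pathway, had the lowest log2 fold change of the 10. It was at 211, 452, 343 and 287 CPM in control livers, 176, 218, 150.5 and 201 in DKO tumors and 218, 209.9, 233 and 238 in TKO tumors. DKO 2 lay just above control 1, so the groups overlapped (log2 fold change -0.79, standard error 0.214, adjusted p = 0.0656 from edgeR). The other acyl-CoA dehydrogenases differed among themselves. Acadvl for very long chains, Acads for short chains and Acad11 had log2 fold changes of -0.56, -0.69 and -0.68 with no overlap between the groups, while Acadl for long chains was at -0.30 and overlapped. The trifunctional protein genes Hadha and Hadhb, whose shared promoter is printed above, were at -0.27 and -0.08 (standard error 0.170 and 0.184). Hadhb was the member of the cycle nearest to control livers, with 85.8, 106, 104 and 83.5 CPM in control livers and 77.0, 126, 76.9 and 80.5 in DKO tumors, where DKO 2 was above every control liver.

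The auxiliary enzymes of unsaturated fatty acids, which move or reduce double bonds so that the chain can enter the cycle, had the lowest median of any role with more than 1 member, -0.75 over 4 genes. Eci2 (Entrez 23986, chromosome 13 from 35069617 to 35118963), a peroxisomal and mitochondrial enoyl-CoA isomerase, was at 182, 311, 251 and 162 CPM in control livers. It was at 86.9, 116, 129 and 160.0 in DKO tumors and 123, 94.9, 159 and 257 in TKO tumors. DKO 4 was the highest DKO tumor and was just below the lowest control liver, control 4. The log2 fold change in DKO tumors was -0.88 (standard error 0.313, adjusted p = 0.117 from edgeR). Eci1, Decr1 and Decr2 were at -0.79, -0.57 and -0.70, and only Eci1 overlapped between the groups.

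Of the electron transfer genes, Etfdh, which hands electrons from the flavoprotein to ubiquinone, had a log2 fold change of -0.75 in DKO tumors with no overlap (standard error 0.274, adjusted p = 0.124 from edgeR). The flavoprotein subunits Etfa and Etfb were at -0.22 and -0.26, with standard errors of 0.201 and 0.244.

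The peroxisomal members were mixed, with 5 of 7 lower in mean in DKO tumors. Abcd3 (Entrez 19299, chromosome 3 from 121461827 to 121518220), the most abundant peroxisomal acyl-CoA transporter, was at 364, 421, 474 and 473 CPM in control livers, 252, 361, 307 and 213 in DKO tumors and 379, 183, 281 and 345 in TKO tumors. The DKO tumors lay below every control liver, with DKO 2 only slightly under control 1 (log2 fold change -0.61, standard error 0.239, adjusted p = 0.144 from edgeR). The thiolases Acaa1a and Acaa1b were at -0.58 and -0.62, but they are near-identical copies and the split of their reads is uncertain. Pex11a, which divides peroxisomes, was at -0.64 and Hsd17b4, the D-bifunctional protein, at -0.18. Ehhadh (Entrez 74147, chromosome 16 from 21761360 to 21787917), the L-bifunctional enzyme and a classical PPARα target, was at 216, 376, 442 and 427 CPM in control livers, 291, 610.2, 268 and 527 in DKO tumors and 444, 221, 413 and 336 in TKO tumors. DKO 2 and DKO 4 were above all control livers and DKO 1 and DKO 3 were within their range (log2 fold change 0.22, standard error 0.326, and -0.01 without DKO 2). Acox2, the oxidase of bile acid intermediates, was at 0.12.

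Bdh1 (Entrez 71911, chromosome 16 from 31422366 to 31458987) was at 205, 391, 364 and 332 CPM in control livers, 201, 355, 174 and 211 in DKO tumors and 469, 329, 277 and 481 in TKO tumors. Control 1 and DKO 2 were each apart from the rest of their group, and the groups overlapped (log2 fold change in DKO tumors -0.46, standard error 0.280, adjusted p = 0.343 from edgeR). Vnn1 (Entrez 22361, chromosome 10 from 23614494 to 23625149), a pantetheinase used as a readout of PPARα, was low in all libraries, with 21 to 280 counts. Its levels were 2.74, 6.02, 1.42 and 2.71 CPM in control livers, 7.13, 2.69, 7.22 and 7.08 in DKO tumors and 7.78, 10.7, 2.61 and 20.9 in TKO tumors. DKO 2 and TKO 3 lay within the control range and the other tumors above it (log2 fold change 0.94 in DKO and 1.73 in TKO tumors, standard error 0.577 and 0.580, adjusted p = 0.346 and 0.186 from edgeR).

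The libraries of a group did not behave alike across the members. The median difference of the members from the control mean, in log2 CPM, was -0.36, 0.30, 0.13 and -0.04 in control 1 to 4, and 36 of 37 members were below the control mean in control 1. In DKO tumors 1 to 4 it was -0.58, -0.25, -0.58 and -0.45, and in TKO tumors 1 to 4 it was -0.11, -0.48, -0.08 and -0.18. Control 1 thus lay below DKO 2 and below 3 of the 4 TKO tumors. Control 1 had the highest lymphocyte marker sum of all libraries, 33.8 CPM against 10.7 to 21.1 in the other control livers, and a macrophage sum of 400.1 CPM, below the 416 CPM of control 4, whose members were near the control mean. The part of these cells in the member levels was not tested. Without control 1 the median over the members was -0.65 in DKO and -0.28 in TKO tumors, and without control 2, the highest control liver, it was -0.43 and -0.10. Over the members the coefficient of variation had a median of 22.3% in control livers, 16.7% in DKO tumors and 24.4% in TKO tumors, against 20.7%, 20.5% and 22.9% over all tested genes and 15.6%, 15.6% and 18.1% over those with a mean of 20 CPM or more.

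TKO tumors were compared with the same 4 control livers, so the comparisons are not independent. The mean was lower for 30 of 37 members (81.1%, against 47.5% of all tested genes) and higher for 7, and the median log2 fold change was -0.20, against 0.02 for all tested genes. edgeR called 0 members, where it called 0.0864% of all tested genes, and voom called 0 (0.699% of all tested genes). The unadjusted p from edgeR was under 0.05 for 5 members lower (Slc27a5, Acadm, Acad11, Echs1 and Abcd3, against 6.33% of all tested genes) and 2 higher (Cd36 and Vnn1, against 9.94%). No member was without overlap between TKO tumors and control livers, against 7.67% of all tested genes. DESeq2 called Slc27a5 and Echs1 lower (1.41% of the genes it tested). The split between higher and lower rested on the scaling. With total counts as the only scaling the median of all genes moved to 0.17, that of the members to -0.01, and 19 members were lower and 18 higher. Relative to the median of all genes, the members were then at -0.18, against -0.22 with TMM.

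By role, all 10 genes of the mitochondrial cycle again had a lower mean, with a median log2 fold change of -0.27 in TKO tumors, as had all 4 auxiliary enzymes (-0.26) and all 3 electron transfer genes (-0.20). Echs1 was at -0.49 (standard error 0.162, adjusted p = 0.183 from edgeR), with TKO 3 inside the control range. Slc27a5 was at -0.63 and Acadm at -0.52. Cd36 was at 1.39 (standard error 0.543, adjusted p = 0.238 from edgeR) and at 0.61 without TKO 4. The 7 members with a higher mean were Cd36, Acsl5, Cpt1a, Crat, Acox2, Bdh1 and Vnn1. Their roles range from uptake to ketone bodies, and Cpt1a and Bdh1 were the 2 with a lower mean in DKO tumors.

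**Figure D4:**
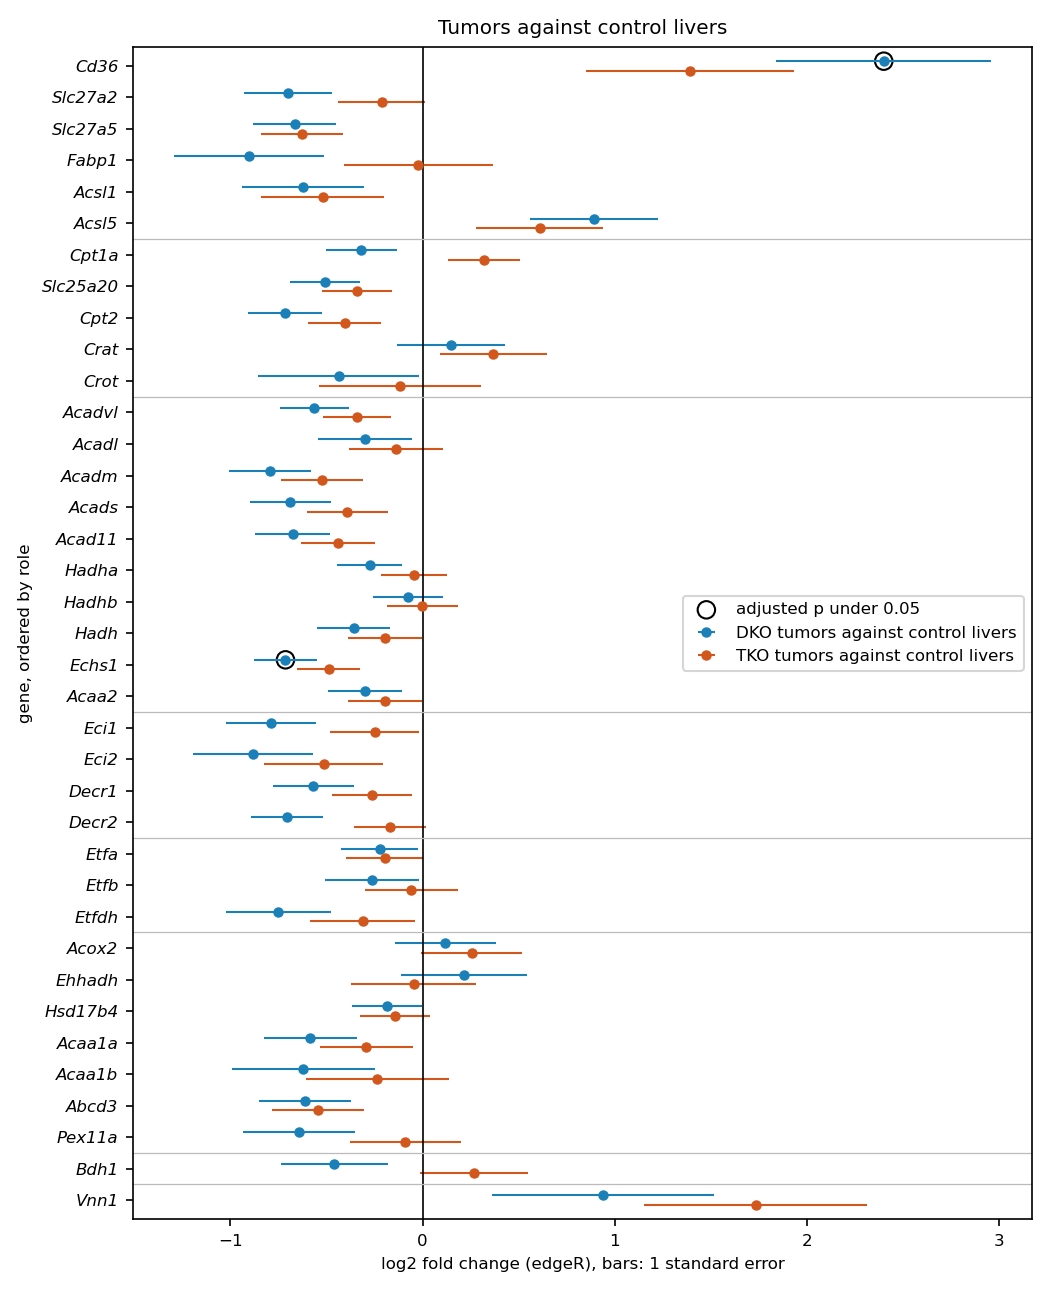
edgeR log2 fold change of each member in DKO tumors (blue) and TKO tumors (orange) against control livers, with bars of 1 standard error. Rings mark the 2 members with an adjusted p under 0.05, Cd36 and Echs1, both in DKO tumors. The orange points lie to the right of the blue ones for 34 of 37 members, and both use the same control livers.

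Between the tumor genotypes, TKO tumors had the higher mean for 34 of 37 members (91.9%, against 51.2% of all tested genes), with a median log2 difference of 0.23 against 0.01 for all tested genes (0.33 against 0.11 with total counts as the only scaling). None was called by edgeR (0.0% of all tested genes were), by DESeq2 (0.398% were) or by voom (0.0% were). The unadjusted p from edgeR was under 0.05 for 5 members, all higher in TKO tumors, which were Cpt1a, Bdh1, Decr2, Eci1 and Fabp1 (13.5%, against 5.16% of all tested genes). Cpt1a had the lowest adjusted p. Its log2 difference was 0.64 (standard error 0.187, adjusted p = 0.446 from edgeR). Cpt1a was the only member whose groups did not overlap, against 2.75% of all tested genes. Its lowest TKO tumor was at 366 CPM and its highest DKO tumor at 362. The exact permutation test of this gene alone gave p = 0.0286. Any groups without overlap give this value, the smallest possible here, so it only restates the lack of overlap. It also takes no account of the 37 members looked at. Bdh1 was at 0.73 (standard error 0.281), Fabp1 at 0.88 (standard error 0.389), Decr2 at 0.54 and Eci1 at 0.54. Cd36, Acsl5 and Ehhadh were the 3 members with a lower mean in TKO tumors, at -1.01, -0.28 and -0.26. Leaving out DKO 2 raised the median difference to 0.31, and leaving out TKO 3 lowered it to 0.19.

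The regulators of the pathway were read from a list of 21 tested genes. Ppara itself was at 359.6 ± 50.6 CPM in control livers, 279 ± 48.6 in DKO tumors and 277 ± 54.2 in TKO tumors (SD, n = 4 each), with log2 fold changes of -0.36 and -0.37 (adjusted p = 0.262 and 0.351 from edgeR). In DKO tumors edgeR called 2 of the 21 lower and 0 higher, against 1.01% and 1.41% of all tested genes. Its unadjusted p was under 0.05 for 8 lower and 2 higher, against 11.1% and 12.9%. DESeq2 called 5 lower and 2 higher, against 4.51% and 5.44% of the genes it tested. The mean was lower for 15, and the median was -0.34. Ppargc1b, a coactivator of mitochondrial genes, was at 6.38, 17.2, 17.3 and 11.3 CPM in control livers and 3.37, 3.08, 4.14 and 2.42 in DKO tumors, all below the lowest control liver. It fell by 2.00 on the log2 scale (standard error 0.405, adjusted p = 0.0425 from edgeR). Nr1h4, the bile acid receptor FXR, was at 109, 146, 148 and 118 CPM in control livers and 76.8, 65.0, 93.1 and 53.9 in DKO tumors, and fell by 0.85 (standard error 0.179, adjusted p = 0.0425 from edgeR). In TKO tumors edgeR called 0 of the list, as did DESeq2. The unadjusted p from edgeR was under 0.05 for 3 lower, against 6.33% of all tested genes. The median was -0.25, with the phosphatidate phosphatase and coactivator Lpin1 lowest at -0.92, followed by Nr1h4 at -0.51 and Ppargc1b at -0.48. The highest means relative to control livers in both tumor genotypes were those of Acacb, whose product makes the malonyl-CoA that inhibits Cpt1a, at 2.00 and 1.17 (adjusted p = 0.114 and 0.427 from edgeR), and of Pparg, at 1.40 and 1.16. Pparg, which drives lipid storage genes, was highest in DKO 4 and TKO 4, with 41.7 and 29.8 CPM against 3.32 to 8.27 in control livers. These are the tumors with the most Cd36. DKO 1, with 144 CPM of Cd36, had 4.45 CPM of Pparg, within the control range. The part of Pparg in the Cd36 result was not tested.

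Genes listed as further PPARα targets outside the members were mixed, and whether PPARα drives them in these tissues was not tested. Of 27 tested genes of a list of 28, edgeR called 0 in any comparison. In DKO tumors the unadjusted p from edgeR was under 0.05 for 6 lower and 3 higher, against 11.1% and 12.9% of all tested genes. DESeq2 called 5 lower and 2 higher there, against 4.51% and 5.44% of the genes it tested. In TKO tumors the unadjusted p was under 0.05 for 1 lower and 3 higher, against 6.33% and 9.94% of all tested genes. DESeq2 called 0 lower and 2 higher in TKO tumors, where it called 498 of the 14983 genes it tested, 211 of them lower. In all, 17 had a lower mean in DKO tumors (median -0.23, but 0.04 without DKO 1 and -0.51 without DKO 4) and 15 in TKO tumors (median -0.12, but 0.10 without control 2 and -0.31 without TKO 4). The lowest in DKO tumors were the fatty acid hydroxylases Cyp4a12a and Cyp4a14, at -1.83 and -1.63, members of a gene family with near-identical copies. The highest were the lipid chaperone Fabp4 at 2.91 (adjusted p = 0.0521 from edgeR) and Pdk4, which turns off pyruvate oxidation, at 2.42 (adjusted p = 0.0709). Fabp4 was at 2.82, 3.07, 3.80 and 2.34 CPM in control livers, 17.2, 7.83, 7.45 and 58.0 in DKO tumors and 13.1, 5.76, 5.06 and 24.4 in TKO tumors. All tumors were above all control livers, and, as with Cd36, DKO 4 and TKO 4 were highest. In TKO tumors the highest were the hormone Fgf21 at 2.11 and Fabp4 at 2.00, and the lowest were Acot3 at -1.80 and Cyp4a10 at -0.96.

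Of 8 genes of ketone body synthesis and use, edgeR called 1 higher and 0 lower in DKO tumors (1.41% and 1.01% of all tested genes). DESeq2 called 1 higher and 2 lower (5.44% and 4.51% of the genes it tested). In TKO tumors both tools called 0, with 1 higher at an unadjusted p under 0.05 from edgeR (9.94% of all tested genes). The gene called by edgeR was Slc16a1, the monocarboxylate transporter MCT1 that carries lactate and ketone bodies. It was at 65.3, 82.4, 73.1 and 51.0 CPM in control livers, 182, 214, 121 and 94.9 in DKO tumors and 114, 111, 114 and 133 in TKO tumors, above every control liver in all tumors of both genotypes. It rose by 1.17 on the log2 scale in DKO tumors (standard error 0.238, adjusted p = 0.0425 from edgeR), and was at 0.80 in TKO tumors (adjusted p = 0.152). In DKO tumors the cytosolic enzyme Bdh2 was at -1.44 (adjusted p = 0.280 from edgeR) and the transporter Slc16a6 at 1.71 (adjusted p = 0.142). In TKO tumors the list ran from Bdh2 at -1.02 and Aacs at -0.59 to Slc16a1 and Slc16a6 at 0.80 and 1.06.

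The peroxins, which import peroxisomal enzymes and build the organelle, had a lower mean in DKO tumors for 15 of 15 genes (median log2 fold change -0.37), and 6 of them did not overlap with control livers (against 7.3% of all tested genes lower). edgeR called 2 lower, where it called 1.01% of all tested genes lower. Pex7, the import receptor of the peroxisomal thiolases, was at 72.9, 99.8, 86.9 and 68.8 CPM in control livers and 54.7, 43.0, 54.7 and 41.2 in DKO tumors, and fell by 0.76 on the log2 scale (standard error 0.165, adjusted p = 0.0449 from edgeR). Pex16, a membrane assembly factor, was at 35.5, 70.8, 49.7 and 40.3 CPM in control livers and 24.1, 21.4, 24.3 and 26.2 in DKO tumors, and fell by 1.03 (standard error 0.215, adjusted p = 0.0425 from edgeR). Both sets of DKO values lay wholly below the control livers. In TKO tumors 13 of 15 had a lower mean (median -0.26) and edgeR called 0. At an unadjusted p under 0.05 from edgeR, 4 were lower (6.33% of all tested genes), and DESeq2 called 1 lower (1.41% of the genes it tested). Pex7 at -0.62 and Pex16 at -0.44 were the lowest pair and Pex26 at 0.10 and Pex14 at 0.03 the highest.

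Markers of other cells and of dividing cells were read beside the members. In DKO tumors, 0 genes of the pericentral, periportal, cholangiocyte, endothelial, stellate, macrophage, lymphocyte and adipocyte lists were called by edgeR among those that passed its filter, and of 8 proliferation genes Mki67 was called higher (2.89, standard error 0.595, adjusted p = 0.0425). In TKO tumors 0 genes of these lists were called by edgeR. DESeq2 called 2 endothelial genes and 6 proliferation genes higher in DKO tumors, where it called 5.44% of the genes it tested higher. It called 2 proliferation genes higher in TKO tumors, where it called 498 of the 14983 genes it tested, 211 of them lower. No other gene of these lists was called by DESeq2 against control livers. At an unadjusted p under 0.05 from edgeR, 7 of the 8 proliferation genes were higher in DKO and 5 in TKO tumors (against 12.9% and 9.94% of all tested genes). The summed proliferation markers were 15.5 to 54.5 CPM in control livers, 39.1 to 205 in DKO tumors and 30.9 to 140 in TKO tumors. The summed stellate and fibroblast markers were 269 to 460 CPM, 175 to 599 and 231 to 436 in the same order, the macrophage markers 164 to 416, 89.7 to 360 and 130.0 to 430, the cholangiocyte markers 28.9 to 50.5, 25.4 to 111 and 31.4 to 55.5, the endothelial markers 146 to 224, 173 to 282 and 187 to 370, the lymphocyte markers 10.7 to 33.8, 8.84 to 28.9 and 11.7 to 19.3, and the adipocyte markers 6.22 to 9.47, 4.19 to 7.43 and 3.99 to 6.47, with no marker at 0 in every library. Of the 10 pericentral genes, 9 had a higher mean in DKO and 9 in TKO tumors (median log2 fold change 1.39 and 1.36), and of the 10 periportal genes 9 had a lower mean in each (-0.80 and -0.44). The sizes, and in TKO tumors the pericentral direction, rested on DKO 4 and TKO 4. Without TKO 4 the median in TKO tumors was -0.83 for the pericentral and -0.09 for the periportal genes, with 10 of 10 pericentral genes lower, and without DKO 4 the medians in DKO tumors were 0.66 and -0.43. The pericentral sums spread from 1080 to 28179 CPM over DKO tumors and from 1682 to 36893 over TKO tumors, and the periportal sums from 542 to 6471 and from 871 to 5777. Their part in the member levels was not tested.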

How the data were processed

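The authors isolated poly(A) RNA from 4 livers or tumors per group, sequenced it with SOLiD chemistry as 40-base reads, aligned these to mm9 (NCBI37) by BWA and assigned them to genes by featureCounts. The deposited table holds raw counts without normalization for 26301 Entrez genes. Tool versions, strand setting and treatment of multi-mapping reads are not given in the sources used here, so overlapping genes and near-identical copies are uncertain. Symbols came from RefSeq (GRCm38.p6) for 24191 identifiers, which held 99.4% of counts, and mm9 coordinates and transcript lengths from GENCODE vM1 by symbol.

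All 12 libraries were fitted with edgeR 4.0.16 (R 4.3.3), with TMM scaling, filterByExpr, a mean per group, the quasi-likelihood test and Benjamini-Hochberg adjustment at 0.05 over all 13882 tested genes. The scripts were tested on simulated counts with 200 changed genes or with none. With 200 changed, 5.4% of the calls by edgeR, 15.7% of those by DESeq2 and 4.5% of those by voom were false. With none changed, edgeR called 0 genes, DESeq2 8 and voom 0, so DESeq2 was the least strict in these simulations. Their spread was taken from edgeR's own estimates and their changes were larger than those of most members, so they do not rank the tools on the real counts. There, voom called more genes than DESeq2 in DKO tumors (1804 against 1491) and fewer in TKO tumors (97 against 498). DESeq2 1.42.0 (the study named DESeq2 as its tool, without a version) and limma 3.58.1 (voom) served as alternatives, besides other scalings and filters, fits on only 8 libraries, a block on replicate number, a sex-linked covariate, a threshold of 0.1, and fits that each lacked a library. For single genes an exact permutation test (two-sided, 70 assignments) was run on log2 CPM (prior count 2). Values in every library are given for called members, for the 3 highest and 3 lowest in each comparison, for members with no overlap and a log2 fold change over 1, and for Cpt1a, Acadm and Bdh1. List genes are named where called and otherwise as the 2 highest and 2 lowest, with Ppara always named, and some genes of this rule are not reported here. Other genes named, such as Glul, were picked after their values were seen. The members and lists were chosen with earlier results of these data known. The labels carry a letter code per sample, some letters shared within or between groups (control 2 and control 3 share one), whose meaning is not given, so shared litters cannot be told, and p-values measure only the spread between these samples. Libraries held 9165812 to 16424973 counts. No pair agreed within sampling noise, though control 2 and control 3 were far closer (chi-square per gene 19.9) than the other control pairs (62.7 to 74.3).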

Additional observations from a re-analysis of the deposited data

Results flagged for a closer look

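In each group of 4 libraries, a member was set apart when its highest or lowest library lay far from the others relative to the range of the group (Dixon's test). This held for 5 of 111 groups, where chance gives about 1 in 20. In TKO tumors, Cd36 in TKO 4 was at 153 CPM against 30.1 to 49.9 in the others. In DKO tumors the other 4 were all in DKO 2, with Hadha at 283 CPM, Hadhb at 126 CPM and Hsd17b4 at 449.9 CPM, each above the other DKO tumors, and Vnn1 at 2.69 CPM, below them. DKO 2 also had the median over the members nearest to the control mean among DKO tumors, -0.25 in log2 CPM. The cause was not tested.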

How the results depend on the processing

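In DKO tumors the number of members called, 2 by edgeR, was 11 with DESeq2, 13 with voom with quality weights, 11 at an adjusted p of 0.1, 1 with no filter, and 0 with total counts as the only scaling or with the sex-linked covariate, and 0 to 3 when a library was left out. In TKO tumors it was 2 with DESeq2 and 0 with each library left out, and between the genotypes it was 0 throughout. The share of all tested genes under 0.1 was not counted, so the 11 members at that threshold cannot be set against it. With each library left out, the median over the members was -0.65 to -0.43 in DKO tumors, -0.28 to -0.10 in TKO tumors and 0.19 to 0.31 between the genotypes. Genes that turned direction were near 0. Ehhadh in DKO tumors was at -0.011 without DKO 2 (-0.011 to 0.38 over the libraries left out). In TKO tumors, with total counts, Fabp1 was at 0.15 and Ehhadh at 0.13, and with libraries left out they ran from -0.38 to 0.20 and from -0.23 to 0.12. Between the genotypes, Slc27a5 and Abcd3 were at -0.0068 and -0.057 with voom, and from -0.14 to 0.14 and from -0.069 to 0.24 with libraries left out. The cause was not tested. With the replicate number as a block, 2 members were called in DKO tumors and 0 in the other comparisons, 509 genes were called in all in place of 336, and Ehhadh in TKO tumors was at 0.012. The correlations of same-numbered libraries overlapped those of the others (r -0.17 to 0.37, median 0.02, against -0.35 to 0.32, median -0.06). The highest were between DKO 3 and TKO 3 (0.37) and between DKO 4 and TKO 4 (0.34). So few pairs cannot decide whether the numbers pair the samples. For the named members, 708 values kept direction and side of the threshold, 8 passed it, 22 lost it and 18 turned. Depth limited only Vnn1, with 21 to 280 counts.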

Other observations

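A wider list of acyl-CoA genes outside the members, 44 of 49 tested, had a lower mean than control livers for 34 genes in DKO tumors (median log2 fold change -0.35) and for 31 in TKO tumors (median -0.23; without control 2 these medians were -0.21 and -0.13), with 0 called by edgeR in any comparison. At an unadjusted p under 0.05 from edgeR, 13 were lower and 5 higher in DKO tumors, against 11.1% and 12.9% of all tested genes. In TKO tumors 4 were lower and 2 higher, against 6.33% and 9.94%. DESeq2 called 5 lower and 1 higher in DKO tumors, against 4.51% and 5.44% of the genes it tested, and 0 in TKO tumors. The lowest in DKO tumors were the brain-type binding protein Fabp7 at -1.46 and Gcdh, the glutaryl-CoA dehydrogenase of lysine breakdown, at -0.85. The highest were the fatty acid binding proteins Fabp4 and Fabp5 at 2.91 and 1.84. In TKO tumors the lowest were Gcdh at -0.79 and Acadsb, a dehydrogenase of branched-chain acyl-CoA, at -0.72, and the highest were Fabp4 at 2.00 and the peroxisomal transporter Abcd2 at 1.47.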
